A study of Rattus norvegicus with 16 samples.

Results

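Primary cilia are antenna-like projections of the cell surface, present on most neurons and astrocytes of the adult brain, where they hold receptors and enzymes of G protein and Hedgehog signalling. Their contents are moved by intraflagellar transport: kinesin-2 motors carry trains built of the IFT-B and IFT-A complexes toward the tip, dynein-2 carries them back, and the BBSome, a coat-like complex, takes receptors out of the cilium. A gate at the base, the transition zone, limits what enters. The expression of 38 genes of this machinery was examined in the central amygdala, a mostly GABAergic nucleus involved in fear, stress and drug seeking, in adult rats exposed around birth to saline or to the synthetic opioid fentanyl. The 38 were listed by name, with Ift140 already known to differ between the exposures in these data. All 38 were found among the 33294 genes of the count table, and all 38 were among the 17856 genes with enough reads to be tested.

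RNA-seq of poly(A) RNA was available for 16 offspring, each 1 library: 6 fentanyl males, 2 fentanyl females, 6 saline males and 2 saline females. Tissue was taken from all of them as adults, 1 day after their final session of the procedure that the labels abbreviate IVSA. That procedure was thus common to both exposures, but the labels used here do not show whether its sessions were alike between them. The sources used here give neither strain, age, dose nor litter, and rats of 1 litter may be among the replicates. Saline males carry the library numbers 1, 2 and 9 to 12, while fentanyl males carry 1 to 6, fentanyl females 1 and 2, and saline females 10 and 11.

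Library totals ran from 12879701 to 22426428 reads counted in genes. Of those reads, 8.44% to 17.7% came from 13 mitochondrial protein-coding genes, with the highest share in fentanyl male replicate 2. That library stood apart from the rest: it held the highest or lowest value of the 16 libraries for 36.8% of all genes tested. Fentanyl female replicate 2 came next, at 26.5% of all genes tested and 7 of the 38. The saline males of numbers 1 and 2 also stood apart, not overlapping with those of numbers 9 to 12 for 44.8% of all genes tested. Of 12 markers of central amygdala neurons none was at 0 in every library, and their summed level ran from 866.0 to 1780 CPM (reads per gene, scaled to a common library size with edgeR's TMM factors). Markers of striatal spiny neurons, which belong to the neighbouring striatum, summed to 2637 to 13132 CPM. In bulk tissue, fewer cells of a type and less RNA per cell cannot be told apart.

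Among the 38 genes, Ift140 was the single gene past the threshold in the comparison of exposures over both sexes (p under 0.05 by the quasi-likelihood test of edgeR, adjusted by the method of Benjamini and Hochberg over all genes tested). It encodes a core subunit of IFT-A, the complex that works in transport back from the tip and in the entry of membrane receptors. Over all genes tested, 0.0784% passed the threshold, 0.0504% as higher after fentanyl and 0.028% as lower. The level of Ift140 in the fentanyl males was 88.2, 75.5, 89.5, 68.4, 65.1 and 73.8 CPM in replicates 1 to 6, and 68.7 and 81.4 CPM in the fentanyl females. In the saline males it was 50.5, 53.1, 51.8, 55.6, 55.5 and 53.2 CPM, and in the saline females 53.1 and 54.5 CPM. The lowest fentanyl value was above the highest saline value, in both sexes, a pattern seen for 0.0616% of all genes tested. The 8 saline libraries were close to each other, and the 8 fentanyl libraries were spread more widely above them.

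The mean level was 76.3 ± 9.20 CPM after fentanyl and 53.4 ± 1.75 CPM after saline (SD, n = 8 each), on 736 to 1517 reads of the gene per library. The fitted log2 fold change was 0.51 ± 0.07 (SE; 95% interval 0.36 to 0.67), a 1.43-fold higher level after fentanyl, with an adjusted p of 0.00541 by edgeR's quasi-likelihood test. A two-sided exact permutation test of log2 CPM, without regard to sex, gave p = 0.0001554. That is the smallest that the 12870 splits of 8 against 8 can give, which the lack of overlap fixes. Because Ift140 was listed with its difference already known, these values describe the 16 libraries and are not an independent finding. The adjusted p was 0.320 without the saline males of numbers 9 to 12, at a log2 fold change of 0.53 ± 0.11, in a fit where 0.0229% of all genes tested passed the threshold. Without those of numbers 1 and 2 it was 0.00456 (edgeR). With limma voom and quality weights, where 5.63% of all genes tested passed, 3 of the 38 did: Ift140, Arl6 and Kifap3, all higher after fentanyl.

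None of the other 5 subunits of IFT-A passed the threshold. Ift43, Ift122, Wdr19, Wdr35 and Ttc21b all had log2 fold changes at or below 0, with a median of -0.05. Ttc21b, a peripheral subunit of the complex, had the lowest estimate of the 38 genes, -0.22 ± 0.12 (adjusted p = 0.733, edgeR). It stood at 12.2 to 19.0 CPM in fentanyl males and at 14.9 to 22.4 CPM in saline males. In females it was 13.4 and 9.49 CPM after fentanyl and 16.7 and 15.9 CPM after saline, and with 2 against 2, 48.8% of all genes tested did not overlap, as here. The male groups overlapped. Taken within each library, Ift140 relative to the mean of its 5 partners gave a log2 ratio of 1.29 to 1.74 after fentanyl (1.49 ± 0.19, SD, n = 8) and of 0.80 to 1.01 after saline (0.92 ± 0.08). The ratio contains Ift140, which was listed with its difference already known, so its separation of the exposures is not a separate finding. It is also not corrected for transcript length, so it does not show how much of each subunit was made.

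**Figure D1:**
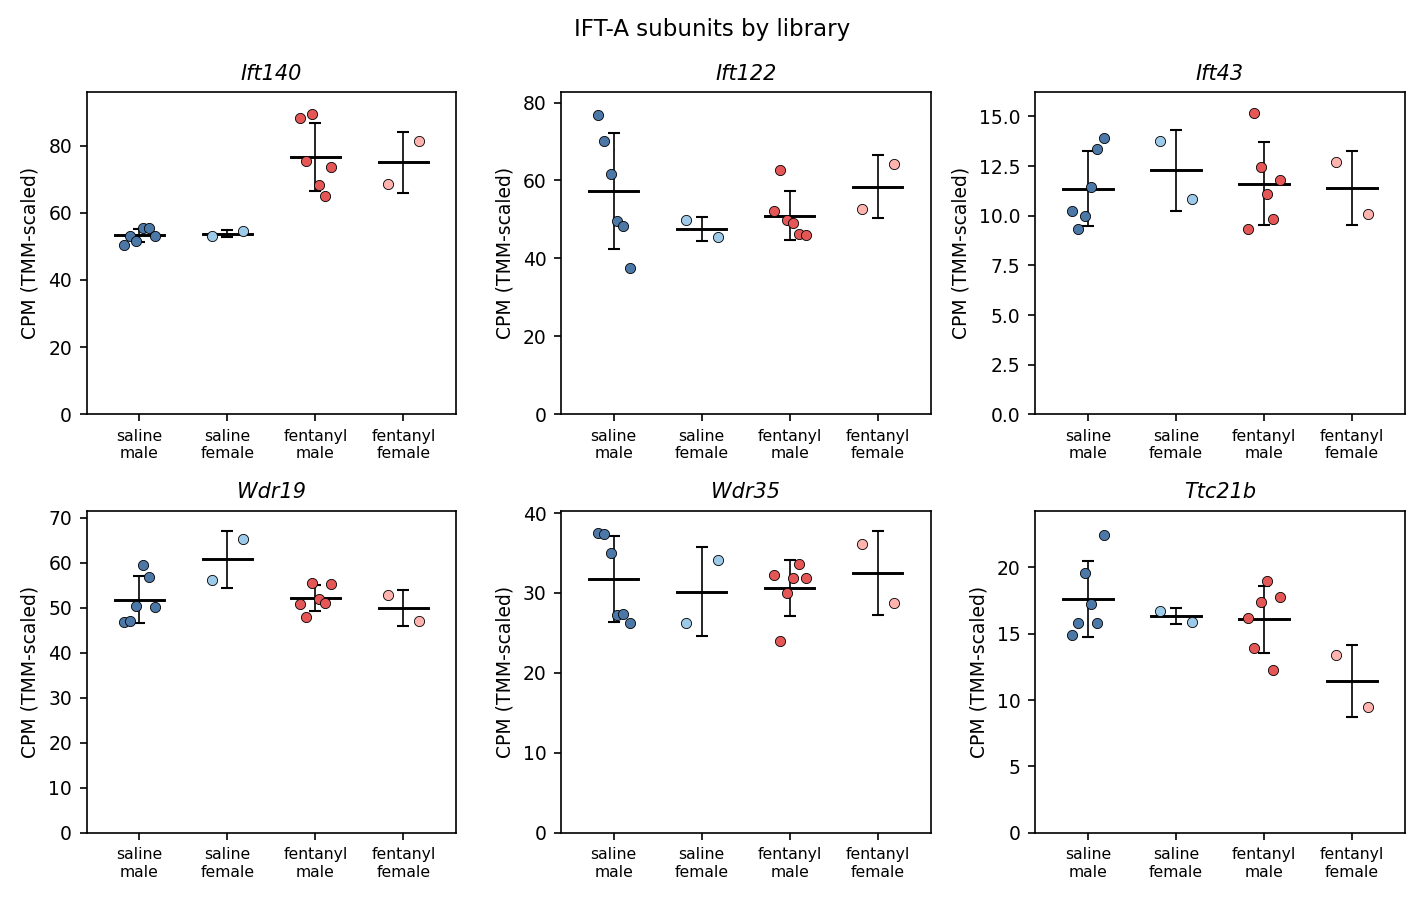
CPM of the 6 IFT-A subunits in each library, by exposure and sex; points are libraries, wide bars the group mean and whiskers the SD (n = 6 for males, n = 2 for females). For Ift140 the fentanyl points, 65.1 to 89.5 CPM, all lie above the saline points, 50.5 to 55.6 CPM, while the groups overlap in at least 1 sex for the other 5 subunits.

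Ift140 lies on chromosome 10, as do 3 others of the 38: Ift20, Kif3a and Pkd1. Tmem204, a gene of a cell-surface protein, overlaps it in the RefSeq annotation of rat (assembly GRCr8). So does a long non-coding RNA that has no row of that name in the count table. Tmem204 was at 5.42 ± 1.45 CPM after fentanyl and 6.00 ± 0.80 CPM after saline (SD, n = 8 each), and its log2 fold change was -0.15 ± 0.15 (adjusted p = 0.835, edgeR). The strand setting of the counting is not given, so reads of overlapping genes may not be told apart, and their part in the difference at Ift140 was not tested. Neighbours on the left were Jpt2, at -0.10 ± 0.23, and Cramp1, at -0.08 ± 0.06, and the nearest on the right beyond Tmem204 was Telo2, at -0.02 ± 0.09. None of these 4 passed the threshold. Pkd1, which encodes polycystin-1 and is 31 genes away on the same chromosome, had a log2 fold change of -0.01 ± 0.07.

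**Figure D2:**
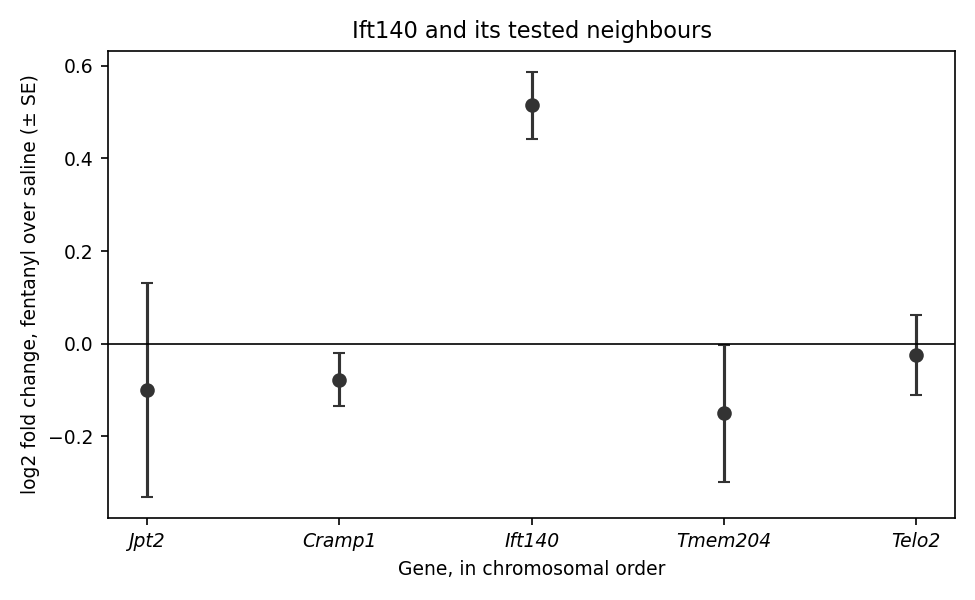
Log2 fold change of fentanyl over saline, with its SE (8 libraries against 8), for Ift140 and the tested genes next to it or overlapping it, in chromosomal order and not to distance. Ift140 is at 0.51 and its 4 neighbours lie between -0.15 and -0.02.

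The promoter of Ift140 is shown because it is the gene that differed, beside that of Arl6, whose call depended on the setting (described further on). Many ciliary genes carry an X-box, the site of RFX transcription factors, near their start. Both stretches are from RefSeq in the build GRCr8, run from 250 bases before the start site to 30 after it on the plus strand, and have the X-box-like match in capitals. That of Ift140 is chr10:14537216-14537495 and that of Arl6 is chr11:54181108-54181387.
Ift140: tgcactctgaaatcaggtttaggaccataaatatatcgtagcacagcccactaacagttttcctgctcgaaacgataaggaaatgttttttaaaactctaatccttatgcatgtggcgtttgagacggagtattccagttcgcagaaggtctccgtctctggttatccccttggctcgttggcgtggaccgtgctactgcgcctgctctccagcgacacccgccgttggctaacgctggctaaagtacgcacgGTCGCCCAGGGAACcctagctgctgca
Arl6: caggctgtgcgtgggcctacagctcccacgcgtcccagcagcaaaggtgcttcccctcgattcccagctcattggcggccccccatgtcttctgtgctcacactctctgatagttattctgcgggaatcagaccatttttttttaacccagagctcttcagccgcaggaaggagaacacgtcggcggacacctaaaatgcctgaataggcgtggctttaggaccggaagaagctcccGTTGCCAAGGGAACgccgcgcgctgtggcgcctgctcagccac

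The design named 2 letter patterns, each searched on both strands in the window from 250 bases before to 50 after the start: the half-site GTTGCC and the full X-box consensus, which begins with a half-site of that kind and ends with its mirror on the other strand. Promoters were found for 31 of the 38 genes. The half-site occurred in 12 of the 31 (38.7%) and in 12.2% of 33469 rat promoters of the same length. Those 12 were Bbs1, Bbs2, Bbs5, Tulp3, Wdr35, Wdr19, Ift20, Ift27, Ift81, Ift88, Kif3a and Arl6. The full consensus occurred in Arl6 alone, at 0.472% of all promoters. Ift140 held neither. A looser form of it, with any base at the third position, was chosen after the Ift140 promoter was seen, and occurred in Ift140, Arl6 and Ift22 and in 1.28% of all promoters. Its match began 3 bases after the start of Ift140, at -13 for Arl6 and at -7 for Ift22. The windows below show Ift22 and the half-sites of 2 genes, Wdr35 of IFT-A and Ift81 of IFT-B, that begin at -10 and -4. Ift81 held another half-site on the other strand, beginning at -11, which is left in small letters in its window. Of these 5 genes Ift140 alone passed the threshold over both sexes. A match is letters in a window and not a measured site.
Ift22: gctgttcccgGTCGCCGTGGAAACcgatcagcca
Wdr35: ggcggcgctgGTTGCCaggcgacggg
Ift81: catggcaaccGTTGCCaaggagcggt

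Of the 38 genes, 14 had log2 fold changes above 0 and 24 below, with a median of -0.02. Over all genes tested 47.7% were above 0, and the median was -0.01. At an unadjusted p under 0.05 there were 2 of the 38, Ift140 and Arl13b, where 7.27% of all genes tested were. Without Ift140 the estimates ran from -0.22 to 0.22. No other estimate reached the lower bound of the interval of Ift140, 0.36, though the intervals of Ift20, Bbs12, Arl3 and Arl6 did.

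IFT-B carries cargo toward the tip and is needed to build a cilium. Of its 11 members 5 were above 0 and 0 passed the threshold, with a median log2 fold change of -0.02 and a range from -0.14 to 0.14. Ift88, a core subunit whose loss shortens or removes cilia, was at the low end, -0.14 ± 0.09 (95% interval -0.33 to 0.04). Ift20, which also works at the Golgi, was at the high end, 0.14 ± 0.14 (95% interval -0.17 to 0.45). Its level was 84.9 CPM in fentanyl male replicate 2 and 37.3 to 52.6 CPM in the other 5 fentanyl males, against 38.4 to 52.5 CPM in saline males. The subunits with the narrowest intervals were Ift172, at 0.06 ± 0.06 (95% interval -0.05 to 0.18), and Ift46, at -0.02 ± 0.06 (95% interval -0.14 to 0.11).

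Kinesin-2 consists of the motors Kif3a and Kif3b and the accessory subunit Kifap3. Their log2 fold changes were -0.09 ± 0.11, 0.06 ± 0.09 and 0.11 ± 0.10, and none passed the threshold. Fentanyl male replicate 2 was the lowest of the 6 fentanyl males for all 3 genes, at 91.1, 48.5 and 191.6 CPM. These motors also serve axonal transport in neurons, so their transcripts are not those of cilia alone.

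The 6 members of the BBSome had a median log2 fold change of -0.02, with 3 above 0. Bbs9, a scaffold subunit, had the highest estimate, 0.15 ± 0.09 (adjusted p = 0.759, edgeR), from 19.4 ± 2.02 CPM after fentanyl and 17.6 ± 2.15 CPM after saline (SD, n = 8 each). It was at 16.5 to 23.0 CPM in fentanyl males and 15.0 to 21.0 CPM in saline males, which overlapped. Females were at 18.6 and 20.8 CPM after fentanyl and at 17.0 and 16.4 CPM after saline. Bbs10 and Bbs12, chaperonin-like proteins needed to assemble the BBSome, had estimates of opposite sign. Bbs10 was at -0.17 ± 0.09 (adjusted p = 0.735, edgeR), from 11.9 ± 1.64 CPM after fentanyl and 13.4 ± 0.81 CPM after saline (SD, n = 8 each). Its lowest value by far was 8.55 CPM in fentanyl male replicate 2, with 11.8 to 13.5 CPM in the other fentanyl males and 12.1 to 14.0 CPM in saline males. Bbs10 in females was 10.5 and 12.9 CPM after fentanyl and 12.6 and 14.6 CPM after saline. Bbs12 was at 0.19 ± 0.14.

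Small GTPases of the ARL family sort cargo at the cilium: Arl13b is a ciliary membrane protein that activates Arl3, Arl3 releases lipid-anchored cargo such as the phosphatase Inpp5e, and Arl6 recruits the BBSome to membranes. Arl13b had the lowest p of the members below 0, with a log2 fold change of -0.22 ± 0.09 and an adjusted p of 0.652 (edgeR). Its level was 22.0, 24.9, 25.4, 28.2, 25.0 and 25.1 CPM in fentanyl males and 27.5, 26.4, 27.1, 26.2, 29.4 and 25.8 CPM in saline males. In females it was 28.3 and 18.1 CPM after fentanyl and 33.0 and 35.1 CPM after saline. The male groups overlapped. The female groups of 2 did not, like 48.8% of all genes tested, and the 2 fentanyl females were far apart.

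Arl3 had a log2 fold change of 0.22 ± 0.14 (adjusted p = 0.778, edgeR). Its level was 230.1 CPM in fentanyl male replicate 2 and 117.6 to 135.1 CPM in the other fentanyl males, against 106.3 to 145.8 CPM in saline males. In females it was 138.3 and 176.4 CPM after fentanyl and 139.2 and 100.2 CPM after saline. Without fentanyl male replicate 2 the estimate for Arl3 was 0.08 ± 0.10. Arl6 had a log2 fold change of 0.15 ± 0.11 (adjusted p = 0.804, edgeR). It was at 36.3, 38.9, 33.6, 37.0, 33.8 and 35.9 CPM in fentanyl males and at 39.1, 46.9, 32.9, 30.8, 26.3 and 27.9 CPM in saline males. Females were at 41.9 and 35.7 CPM after fentanyl and 32.1 and 27.7 CPM after saline. All 6 fentanyl males lay between the saline males of numbers 1 and 2 and those of numbers 9 to 12. Without the saline males of numbers 1 and 2 Arl6 passed the threshold, at 0.32 ± 0.08 (adjusted p = 0.0238, edgeR), in a fit where 6.9% of all genes tested did. Without those of numbers 9 to 12 the estimate was -0.02 ± 0.12. Tulp3, which brings receptors to IFT-A, and Inpp5e were at -0.05 ± 0.08 and -0.04 ± 0.09.

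The transition zone genes Cep290, Rpgrip1l and Tmem67 were at -0.07 ± 0.12, -0.05 ± 0.08 and -0.06 ± 0.08. Pkd1 and Pkd2, which encode the polycystins, a ciliary receptor-like protein and its cation channel partner, were at -0.01 ± 0.07 and -0.02 ± 0.09. None of these 5 passed the threshold. The 95% interval of Pkd1 ran from -0.16 to 0.13, the narrowest bounds among them. Its row overlaps that of Tsc2 in the RefSeq annotation, so the limit on strand applies to it also. The same holds for other members, among them Cep290 with Rlig1, Ift172 with Krtcap3 and Ift74 with Lrrc19. Further cases were Inpp5e with Pmpca, Ift46 with Arcn1 and Arl13b with Stx19, and the list is not complete.

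**Figure D3:**
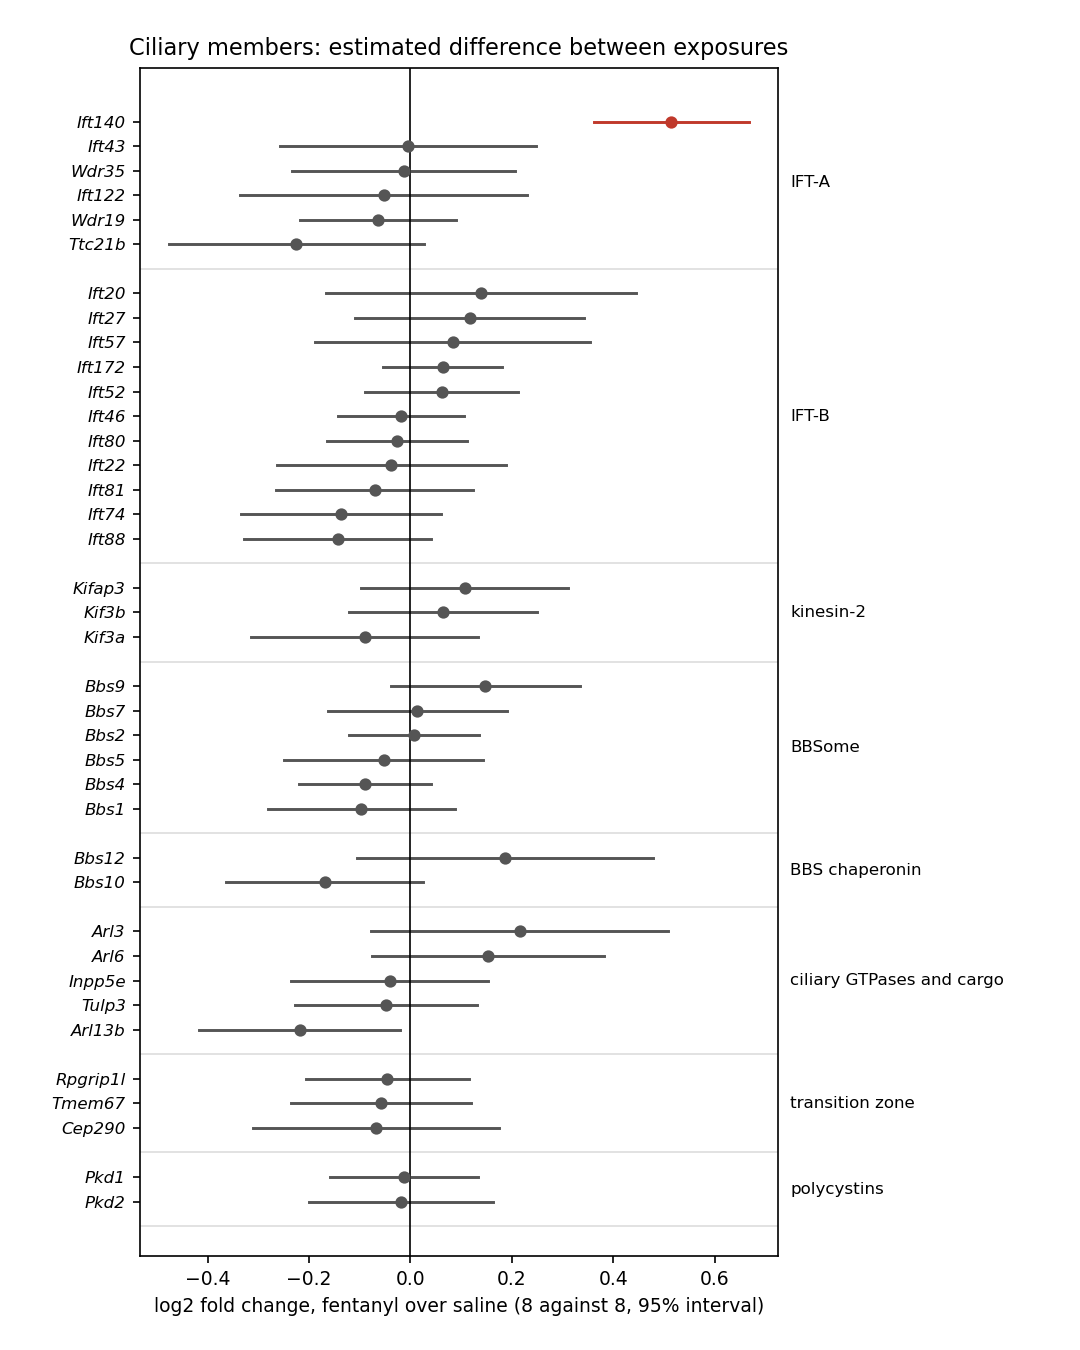
Log2 fold change of fentanyl over saline with its 95% interval for the 38 genes, grouped by role (8 libraries against 8, sex as a term). Ift140, in red, is at 0.51 (0.36 to 0.67), and the other 37 estimates lie between -0.22 and 0.22.

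In males, Ift140 was again the single member past the threshold, with a log2 fold change of 0.53 ± 0.09 and an adjusted p of 0.0358 (edgeR). Over all genes tested, 0.0392% passed the threshold in this comparison, all as higher and 0% as lower. The 6 fentanyl males and the 6 saline males did not overlap at Ift140, alone among the members, nor at 0.375% of all genes tested. At an unadjusted p under 0.05 there were 2 members, Ift140 and Bbs1, and 4.13% of all genes tested. The call was lost when any of 11 of the 16 libraries was left out: fentanyl males 1, 3 and 6, each saline male, and both saline females, which share the fit. The estimate moved little in those fits, from 0.48 to 0.57 over all 16, and the highest adjusted p was 0.111. The members next in line were Bbs12 at 0.22 ± 0.16, Bbs9 at 0.12 ± 0.10 and Ift52 at 0.10 ± 0.08 above 0, and Bbs1 at -0.20 ± 0.09, Ift22 at -0.18 ± 0.10 and Ift88 at -0.16 ± 0.10 below 0. Their adjusted p was 0.9998 in each case. Ift22 is a Rab-like subunit of IFT-B, and Bbs1 is the BBSome subunit that Arl6 binds.

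In females, with 2 libraries against 2 and the spread taken from the fit of all 4 groups, 0 members passed the threshold by edgeR, as did 0% of all genes tested. There were also 0 members by DESeq2, which called 0.112% of all genes tested, and 0 by limma voom with quality weights, which called 0%. Ift140 was at 0.48 ± 0.15 (adjusted p = 0.333, edgeR), close to its estimate in males. At an unadjusted p under 0.05 there were 5 members, where 14.3% of all genes tested were: Arl13b at -0.56 ± 0.17, Ift140, Ift57 at 0.52 ± 0.23, Ttc21b at -0.51 ± 0.23 and Ift22 at 0.39 ± 0.18. The next was Wdr19, an IFT-A core subunit, at -0.28 ± 0.14. Fentanyl and saline females did not overlap for 17 members, 10 of them above and 7 below, while 48.8% of all genes tested did not overlap (24.1% above, 24.7% below). With 2 against 2, that count was near the background. The estimates depended on which fentanyl female was kept. Without fentanyl female replicate 2, Arl13b was at -0.27 ± 0.15, Ttc21b at -0.29 ± 0.27 and Ift22 at 0.26 ± 0.22. Ift57 was then at 0.48 ± 0.29 and Ift140 at 0.35 ± 0.17. Without fentanyl female replicate 1, Arl13b was at -0.91, Ttc21b at -0.78, Ift22 at 0.51, Ift57 at 0.56 and Ift140 at 0.60. In both fits the lone fentanyl female is assumed to vary like the other groups. Cell type markers moved in the same comparison. Of the myelin and oligodendrocyte genes 0 of 12 were above 0 in females (median -1.01), as were 0 of 12 astrocyte (-0.52), 0 of 7 oligodendrocyte precursor (-0.64) and 0 of 10 microglial markers (-0.53). Striatal markers were above 0 for 12 of 12 and central amygdala markers for 10 of 12, each with a median of 0.88. None of these markers passed the threshold, and their part in the values of the members was not tested.

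The effect of the exposure was not shown to differ between the sexes for any member. In the test of that difference, female minus male, 0 of the 38 and 0% of all genes tested passed the threshold by edgeR, and 4 members had an unadjusted p under 0.05, where 8.23% of all genes tested did. Those were Ift22 at 0.57 ± 0.21, Bbs1 at 0.42 ± 0.18, Ift57 at 0.58 ± 0.27 and Arl13b at -0.45 ± 0.19, each with an adjusted p of 0.570. Wdr19 followed at -0.29 ± 0.16 and Ift80 at -0.22 ± 0.14. For Ift140 the difference was -0.05 ± 0.17 (95% interval -0.41 to 0.31). DESeq2 called 0 members and 0.0224% of all genes tested, and limma voom 0 members and 0%.

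Between females and males, with exposure as a term, 0 of the 38 passed the threshold by edgeR, where 0.056% of all genes tested did in either direction. The members with the smallest p were Ift46 at 0.17 ± 0.07 and Ttc21b at -0.30 ± 0.14, the 2 at an unadjusted p under 0.05 (2.52% of all genes tested). Arl13b at 0.12 ± 0.11 and Wdr19 at 0.09 ± 0.08 came next above 0, and Ift81 at -0.18 ± 0.11 and Kif3a at -0.15 ± 0.12 below 0. Every adjusted p for these 6 was 0.9999. DESeq2 called 0 members and 0.0672% of all genes tested, and limma voom 0 members and 0.084%.

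**Figure D4:**
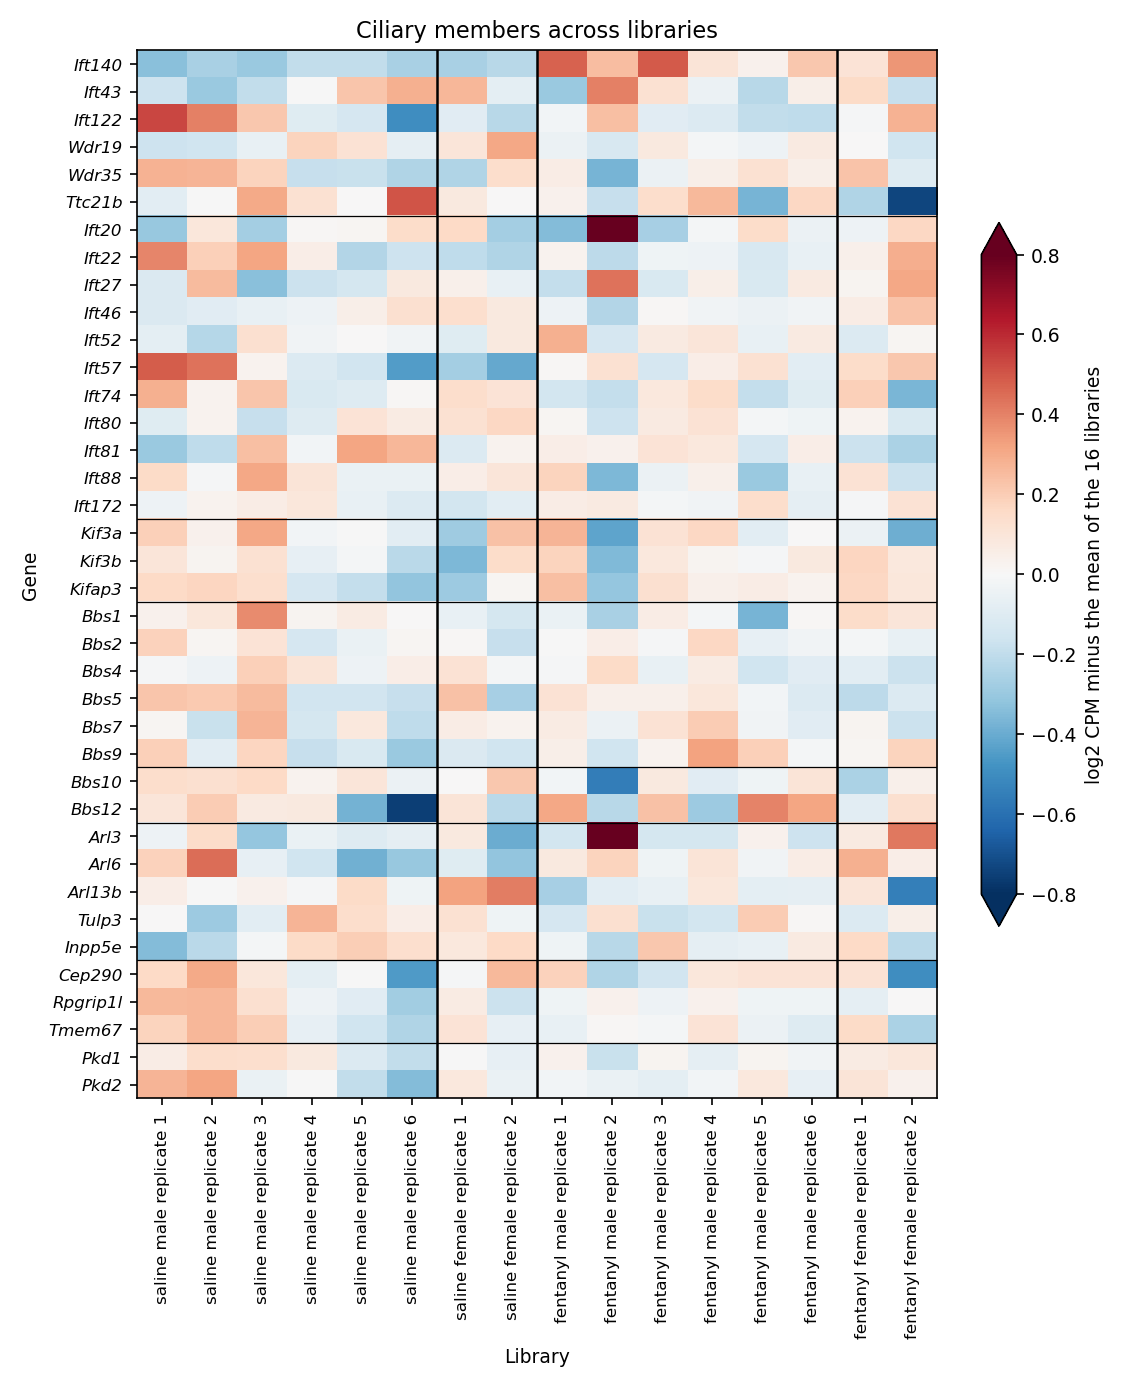
Log2 CPM of the 38 genes in the 16 libraries, each gene as the difference from its mean over the libraries; the colour scale runs from -0.8 to 0.8 and arrows mark values beyond it, lines part the roles and the groups. Ift140, the top row, is below its mean in all 8 saline libraries and above it in all 8 fentanyl libraries, and fentanyl male replicate 2 holds the 2 darkest red cells, at Ift20 (84.9 CPM) and Arl3 (230.1 CPM).

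How much the genes varied among rats of 1 group differed widely. In saline males the SD of log2 CPM was smallest for Ift140 (0.05), Arl13b (0.07) and Ift172 (0.08), and largest for Ift122 (0.38), Bbs12 (0.37) and Ift57 (0.36). In fentanyl males it was smallest for Rpgrip1l (0.04), Pkd2 (0.06) and Tmem67 (0.07), and largest for Ift20 (0.42), Arl3 (0.38) and Bbs12 (0.30). The median over the 38 was 0.19 in saline males and 0.15 in fentanyl males, and over all genes tested, not matched for level, 0.28 and 0.24. The SD of Ift140 in fentanyl males was 0.19, above the median of the 38 there. The gene was picked here as the lowest of 38 in saline males, and its difference was known beforehand. Whether its spread differs between the exposures was not tested. Fentanyl male replicate 2 held the highest or lowest of all 16 values for 9 of the 38 genes, and for 36.8% of all genes tested. Saline male replicates 1 and 6 did so for 10 of the 38 each, and for 16.1% and 19.4% of all genes tested.

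The 2 sets of library numbers among saline males were compared at these genes. Of the 38, 16 did not overlap between numbers 1 and 2 and numbers 9 to 12, 10 of them higher and 6 lower in numbers 1 and 2. With 44.8% of all genes tested not overlapping, that count is near the background. Ift122, an IFT-A core subunit, was at 76.8 and 70.0 CPM in numbers 1 and 2 and at 61.7, 49.6, 48.3 and 37.5 CPM in numbers 9 to 12. Ift57 was at 56.3 and 54.5 CPM against 41.1, 37.4, 36.1 and 29.5 CPM. Pkd2 was at 48.1 and 49.6 CPM against 38.3, 39.7, 34.7 and 31.4 CPM. Inpp5e went the other way, at 19.8 and 21.6 CPM against 24.8, 27.9, 28.7 and 27.5 CPM. For 22 of the 38 the mean of the fentanyl males lay between the means of the 2 saline sets. For Ift140 it lay outside: the saline sets were at 51.8 ± 1.81 CPM (n = 2) and 54.0 ± 1.85 CPM (n = 4), and the fentanyl males at 76.7 ± 10.1 CPM (SD, n = 6).

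Set against numbers 9 to 12 alone, Ift140 in fentanyl males had a log2 fold change of 0.51 ± 0.10 (adjusted p = 0.0463, edgeR), with 0.4% of all genes tested past the threshold. Set against numbers 1 and 2 alone it was at 0.56 ± 0.14 (adjusted p = 0.0348, edgeR), with 5.47% of all genes tested past it. In that fit Ift122, at -0.53 ± 0.13 (adjusted p = 0.0359), and Ift57, at -0.45 ± 0.10 (adjusted p = 0.0267), passed the threshold as lower after fentanyl. Against numbers 9 to 12 they were at 0.05 ± 0.13 and 0.18 ± 0.10, with adjusted p of 0.926 and 0.466 (edgeR). The sign for Ift122 and Ift57 thus turned with the saline set used, though neither passed the threshold against numbers 9 to 12. The sign for Ift140 was the same against both sets, as it also was for other members, among them Ift22, Ift88, Bbs1 and Arl3.

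**Figure D5:**
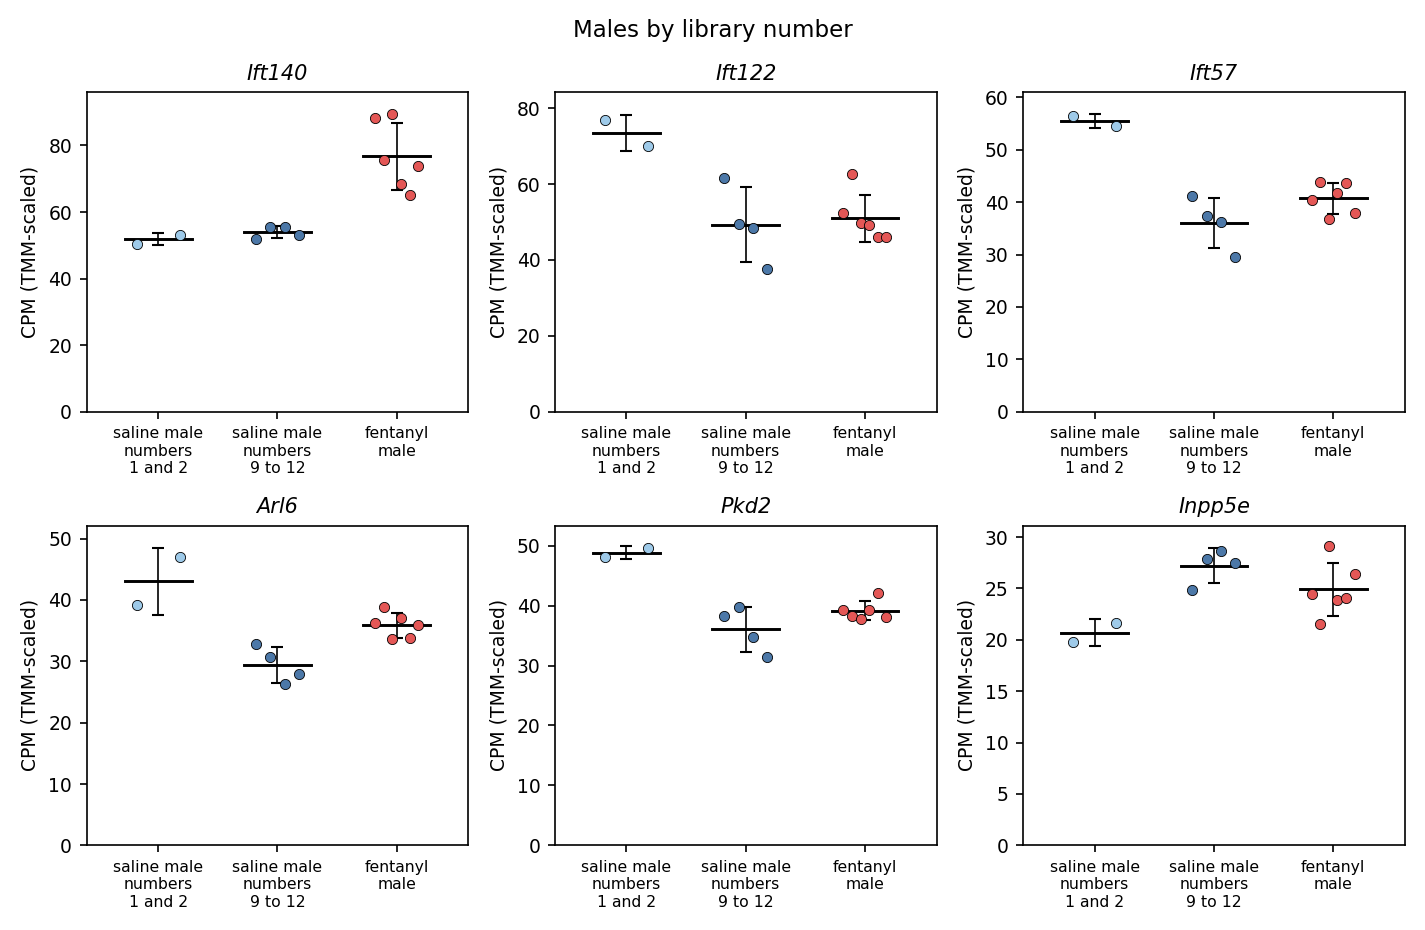
CPM of 6 genes in saline males of library numbers 1 and 2, saline males of numbers 9 to 12, and fentanyl males; points are libraries, wide bars the mean and whiskers the SD (n = 2, 4 and 6). Ift140 is alike in both saline sets and higher in fentanyl males, while the other 5 genes differ between the saline sets.

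Markers of other cells moved with these libraries. The sum of 12 myelin and oligodendrocyte genes was 7462 and 10064 CPM in the saline males of numbers 1 and 2 and 11650 to 33833 CPM in numbers 9 to 12. The sum of 12 markers of striatal spiny neurons was 8460 and 10556 CPM in numbers 1 and 2 and 2637 to 4627 CPM in numbers 9 to 12, and their part in the differences at Ift122, Ift57, Arl6, Pkd2 and Inpp5e was not tested. Between exposures, striatal markers summed to 5992 to 13132 CPM after fentanyl and 2637 to 10556 CPM after saline, with 12 of 12 fold changes above 0, a median of 0.50 and 0 past the threshold. Of 12 astrocyte markers 0 were above 0, with a median of -0.16, 0 past the threshold, and sums of 2479 to 3531 CPM after fentanyl and 2492 to 4199 CPM after saline. Over both sexes 0 of 10 microglial markers were above 0 (median -0.25), 0 of 7 of oligodendrocyte precursors (-0.20), 1 of 12 of myelin (-0.22), and 6 of 7 meningeal and fibroblast markers (0.32), with 0 past the threshold in each list. Of 8 pan-neuronal markers 5 were above 0 (0.04), of 12 central amygdala markers 7 (0.02) and of 10 endothelial and mural markers 6 (0.08). Of 5 tested cortical and basolateral markers 2 were above 0 (-0.59) and of 5 thalamic and diencephalic markers 1 (-0.36), again with 0 past the threshold in each. The summed level of all 8 cortical and basolateral markers went the other way, with a median of 1466 CPM after fentanyl and 1175 CPM after saline. The part of these markers in the difference at Ift140 was not tested.

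Ependymal cells, which line the ventricles and bear motile cilia, also use intraflagellar transport, and their markers were checked for that reason. The list held 33 genes with a row in the table, of which 1, Tmem212, was at 0 in all 16 libraries. Summed, the 33 stood at 129.8 to 192.7 CPM after fentanyl and 112.1 to 168.5 CPM after saline. Of the 23 tested, 8 were above 0 and the median log2 fold change was -0.09. The 2 past the threshold, Spag6l and Efcab1, were both higher after fentanyl. Without them the sums were 111.9 to 142.0 CPM (median 126.1) after fentanyl and 108.4 to 163.8 CPM (median 126.0) after saline. By sex, the median without them was 117.5 CPM in fentanyl and 135.5 CPM in saline males, while fentanyl females stood at 139.0 CPM and saline females at 126.0 CPM. These 2 genes were left out because they passed, so the sums without them are a description. Choroid plexus markers, 9 genes, summed to 90.7 to 308.9 CPM after fentanyl and 105.8 to 408.9 CPM after saline.

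The wider machinery of the cilium was read from 8 lists of other genes, 117 in the table and 116 tested. Of the 116, 0 passed the threshold over both sexes by edgeR, 6 had an unadjusted p under 0.05, 62 were above 0, and the median log2 fold change was 0.00. Among 7 other subunits of IFT-B, 3 were above 0, and the smallest p was that of Ttc30a, at -0.24 ± 0.13. Among 12 genes of dynein-2 and ciliary kinesins 6 were above 0, with Dynll2, a light chain shared by several motors, at 0.13 ± 0.08. Of 7 further genes of the BBSome and its assembly 5 were above 0. The smallest p there was that of Bbip1, a small BBSome subunit, at 11.6 ± 1.98 CPM after fentanyl and 9.12 ± 1.14 CPM after saline (SD, n = 8 each), or 0.34 ± 0.11 in log2 fold change (adjusted p = 0.480, edgeR).

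Of 8 genes for lipid-anchored cargo and small GTPases 2 were above 0, with Rab23, a regulator of Hedgehog signalling, at -0.13 ± 0.08. In 26 further transition zone genes, 18 were above 0, with a median of 0.04, and Tctn1, a tectonic, had the smallest p, at 0.24 ± 0.09 (adjusted p = 0.543, edgeR). In 25 genes of the basal body and ciliogenesis 13 were above 0, with a median of 0.00, and Tbc1d32 was at -0.27 ± 0.16.

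Of 17 Hedgehog genes 7 were above 0, with a median of -0.13, and the smallest p was that of Boc, a co-receptor of Hedgehog ligands, at 0.41 ± 0.13 (adjusted p = 0.415, edgeR). In 14 tested signalling proteins found in neuronal or astroglial cilia, 8 were above 0, with a median of 0.11.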

How the data were processed

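Libraries were made from Trizol-extracted RNA with poly(A) selection and a NEBNext kit, per the labels' protocols. The submitters' processing notes name rn7 as the build and DESeq2, HTSeq, STAR and Trimmomatic as tools, with no role; versions, annotation and strand setting are not stated there or in the labels. The authors deposited whole-number read counts per gene, not normalized, 1 column per library; 5345 genes had no count. Library names in the labels mapped columns to samples. No library was counted as a duplicate: chi-square per gene was at least 4.69 in all 120 pairs.

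Counts were fitted in R 4.3.3 with edgeR 4.0.16: filterByExpr (minimum 0.603 CPM), TMM factors, glmQLFit with robust estimation and glmQLFTest, sex as a term over both sexes, and contrasts of the 4 groups otherwise. Each SE is the absolute log2 fold change over the root of F. Alternatives were DESeq2 1.42.0, limma 3.58.1 voom, sva 3.50.0 (3 surrogate variables), RLE factors, no filter, no sex term, a replicate block, male or female libraries alone, and libraries left out. The fit was tested on simulated counts.

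The members, the marker and pathway lists, and the choices above were made with earlier results of these data known. Named were members past the threshold, otherwise the 3 smallest p in each direction per comparison, the 3 highest and lowest SD in male groups, the smallest p per pathway list, and the neighbours of a called member. For 1 pathway list the named gene is not reported here. Other members were added by role after their values were seen. Of 273 list entries 6 were not found. Promoters are from RefSeq (GRCr8), with 7 members unmatched, and no coordinates were converted. Transcript lengths were not used here, so levels are not compared between genes.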

Additional observations from a re-analysis of the deposited data

Results flagged for a closer look

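In each of the male groups of 6, the highest or lowest library of each member was set against the others by Dixon's test of the gap to the nearest value at 95%, on log2 CPM, which chance passes in about 1 of 20 groups. The groups share the same libraries, so that rate is not a measure for their count. The share over all genes tested is not given here. Of 76 groups, 8 had such a library. Fentanyl male replicate 2 was that library for 5 genes; it also had the highest mitochondrial share, 17.7%. It was low for Ift46 (28.4 CPM, others 32.3 to 33.6), Wdr35 (23.9 CPM, others 29.9 to 33.7), Kif3b (48.5 CPM, others 61.4 to 70.0) and Bbs10 (8.55 CPM, others 11.8 to 13.5), and high for Arl3 (230.1 CPM, others 117.6 to 135.1). Fentanyl male replicate 5, the library with the lowest total, was low for Ift81 (15.9 CPM, others 17.8 to 18.8) and high for Pkd2 (42.2 CPM, others 37.7 to 39.3). Saline male replicate 3 was high for Bbs1 (47.8 CPM, others 36.9 to 39.2). Ift140 had no such library. On CPM, a scale tried after seeing the data, the count was also 8, with Ift20 and Ift27 in fentanyl male replicate 2 in place of Kif3b and Wdr35.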

How the results depend on the processing

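Over both sexes the count of members past the threshold was 1. It became 3 with limma voom and quality weights (Arl6, Ift140 and Kifap3, all higher), 2 without the saline males of library numbers 1 and 2 (Arl6 and Ift140), and 0 without those of numbers 9 to 12. In males the count of 1 became 3 without numbers 9 to 12 (Ift140 higher, Ift122 and Ift57 lower) and 0 with male libraries alone. Leaving out each library in turn gave 1 to 1 over both sexes and 0 to 1 in males. The cause was not tested. Replicate numbers did not pair the samples: same-number correlations of deviations ran from -0.0694 to 0.209 in males and were -0.172 in females, and male replicate 3 alone correlated best with its own number. With the replicate block the count was 0 over both sexes (Ift140 at 0.51 ± 0.08, adjusted p = 0.0792) and 0 in males (adjusted p = 0.257), and with the numbers crossed in females, added after seeing the data, 0 over both sexes.

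For Ift140 over both sexes the log2 fold change was 0.47 to 0.55 over 26 alternatives and the adjusted p 8.78e-09 to 0.320. With each library left out that p was 0.00352 to 0.0179. The estimate for Arl6 turned to -0.0169 without saline males of numbers 9 to 12. Counts in females, of the difference and between the sexes were 0 in every alternative run. In the fits of all 4 groups, female groups of 2 share their spread with the males. A female group of 1, where a library was left out, adds no spread of its own. With female libraries alone, no male library enters the fit.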
